A study of Homo sapiens with 2 samples.

Results

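The keratin genes were taken as all probes whose gene symbol is KRT followed by a number and, for some genes, a letter from A to C. Keratin-associated proteins (KRTAP) and keratin pseudogenes were kept apart by this rule. It found 55 genes among the 34757 gene symbols of the array, with 64 of its 58199 probes, and each keratin probe stood on 1 spot. A375 is a human melanoma cell line. One culture received a control siRNA (NC) and the other an siRNA against THOC2 (si-THOC2), a subunit of the THO complex, which takes part in the export of mRNA from the nucleus. RNA was taken at 48 h, with the same medium and extraction for both cultures, and each RNA was labelled with Cy3 and hybridised to 1 Agilent one-colour array. With 1 array per condition there is no measure of the spread between cultures, so no test was possible and every difference below compares these 2 arrays.

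The labels of the samples contradict each other. On each array the source name states the opposite condition to the title and description, which were followed here. The THOC2 probe at chrX:122734486-122734545 (hg19) read 136 on the NC array and 40.9 on the array labelled THOC2 siRNA, a log2 fold change of −1.42. The other THOC2 probe, at chrX:122747960-122748019, read 67.3 and 35.1, a log2 fold change of −0.63. Both were lower on the array labelled THOC2 siRNA, as the titles say, and all directions below rest on this reading. Signals are background-subtracted fluorescence units as deposited. A log2 fold change is si-THOC2 over NC after each array was scaled to its 75th percentile, which raised the si-THOC2 signals by a factor of 1.24 relative to NC, so a probe with equal raw signals has a log2 fold change of 0.31. A technical SD beside a value is the spread of log2 fold changes over repeated spots of probes of like signal, and it leaves out the difference between cultures.

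Keratins form the intermediate filaments of epithelial cells. A filament is built from pairs of 1 acidic type I and 1 basic type II chain, and the genes of each type stand together, type II on chromosome 12 and type I on chromosome 17, with the type I gene KRT18 beside KRT8 on chromosome 12. Simple epithelia use KRT7, KRT8, KRT18 and KRT19, stratified epithelia use pairs such as KRT5 with KRT14 and KRT1 with KRT10, and hair and the root sheath of the hair follicle have keratins of their own. KRT6A, KRT6B, KRT6C, KRT16 and KRT17 are known as keratins of wounded or activated skin. Melanocytes and melanoma cells use vimentin as their main intermediate filament protein, and keratins are not their defining markers.

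About as many keratins were measurable in A375 as genes in general. A probe counts as measured when the scanner software marked it as well above background. On the NC array 30 of the 64 keratin probes were (46.9%, against 42.3% of all probes), on the si-THOC2 array 29 were (45.3%, against 39.4%), and on at least 1 array 32 were (50%, against 43.5%). By gene, 28 of 55 were measured on at least 1 array, 24 on both, 3 on the NC array only (KRT4, KRT19 and KRT39) and 1 on the si-THOC2 array only (KRT75). The other 27 were not well above background on either array, with signals of 2.92 to 14.8 on the NC array and 3.16 to 14.5 on the si-THOC2 array for all keratin probes of this kind. They were KRT1, KRT2, KRT5, KRT12, KRT20, KRT23, KRT24, KRT25, KRT26, KRT27, KRT28, KRT33A, KRT33B, KRT35, KRT36, KRT37, KRT38, KRT40, KRT71, KRT72, KRT74, KRT76, KRT77, KRT79, KRT82, KRT84 and KRT222. No fold is given for them.

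Measured keratins came from every branch of the family except the type I root sheath. Of the type II genes, both simple epithelial keratins, 7 of 13 stratified epithelial keratins, 4 of 6 hair keratins and 2 of 5 root sheath keratins were measured on at least 1 array. Of the type I genes, 2 of 4 simple epithelial keratins, 7 of 9 stratified epithelial keratins and 4 of 11 hair keratins were, and 0 of 4 root sheath keratins. Several known partners were split. KRT10 was measured and its partner KRT1 was not, KRT14 was measured and KRT5 was not, and KRT3 of the cornea was measured and KRT12 was not. KRT8 and KRT18, the pair of simple epithelia, were both measured on both arrays. A signal below background sets only an upper limit on a transcript, and probes differ in how strongly they bind, so the order of signals between genes was not read.

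**Figure D1:**
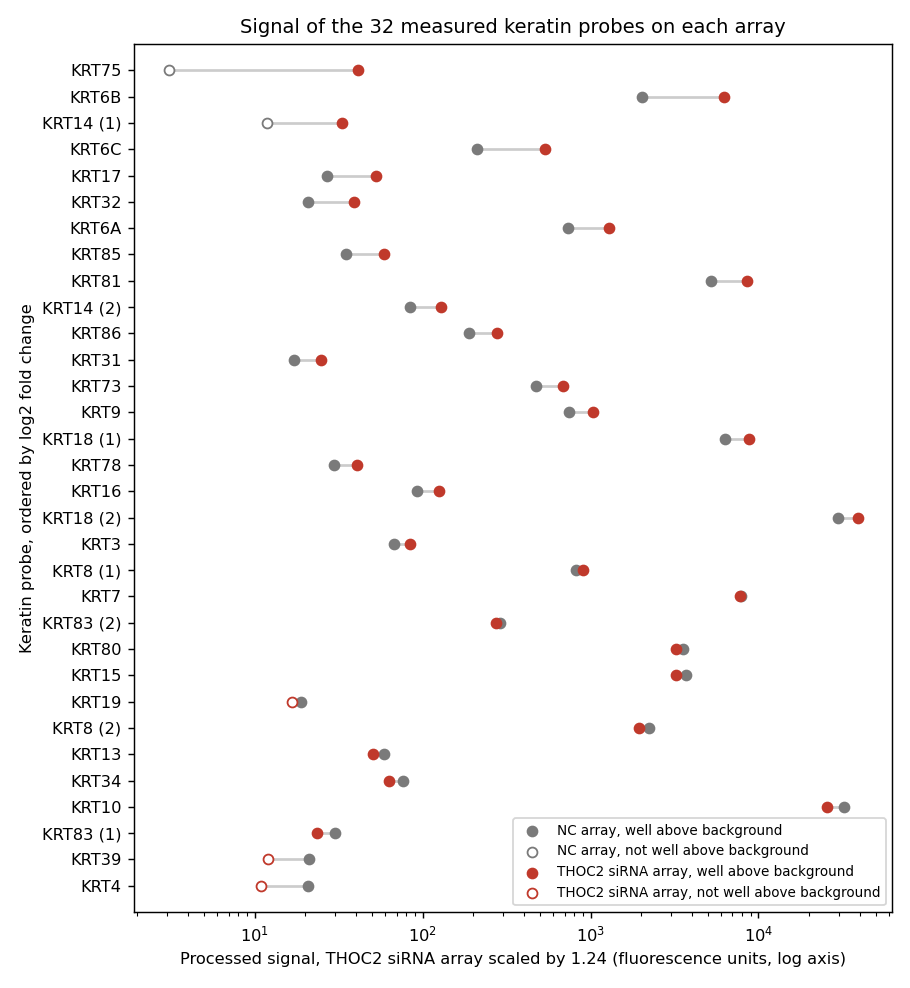
Processed signal (x axis, log scale, fluorescence units) of the 32 keratin probes measured on at least 1 array, ordered from the highest to the lowest log2 fold change, with the si-THOC2 signals (red) scaled by 1.24 to the NC array (grey). Open points are not well above background, and genes with several probes are numbered. The KRT6B points lie furthest apart among probes measured on both arrays, and KRT75 has an open NC point.

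Compared with NC, 4 of the 32 compared keratin probes were at least 2-fold higher with si-THOC2 (12.5%) and 0 were at least 2-fold lower. Over all 25345 compared probes, 2.93% were higher and 3.33% lower by this rule. The 4 were the probes of KRT6B, KRT6C and KRT75 and 1 of the 2 measured KRT14 probes. Among the 27 keratin probes measured on both arrays, KRT6B and KRT6C were higher (7.41%, against 0.829% of all such probes) and 0 were lower (against 0.365%). Genes of a family can share sequence and are not independent of each other, so these shares describe the probes and no test was made of them. The median log2 fold change of the 28 measured keratin genes was 0.44, against a median of 0.02 over 17514 genes. Of the 28, 17 were above 0 and 11 below, and this share above 0 (60.7%) was near that of all genes (53.4%). Restricted to genes measured on both arrays, the medians were 0.46 over 24 keratin genes and 0.04 over 15647 genes. A lower or higher signal in cultured cells can come from fewer cells that make a transcript or from less of it per cell, which cannot be told apart here.

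KRT6A, KRT6B and KRT6C are neighbouring paralogs on 12q13.13 that encode nearly identical type II keratins of the hair follicle, nail bed and wounded epidermis. All 3 were measured on both arrays and all 3 were higher with si-THOC2. The KRT6B probe (chr12:52840556-52840615, minus strand) read 2026 on the NC array and 5049 on the si-THOC2 array, a log2 fold change of 1.63 with a technical SD of 0.05, or 3.09-fold. The KRT6C probe (chr12:52863651-52864324, minus strand) read 212 and 435, a log2 fold change of 1.35 with a technical SD of 0.07, or 2.55-fold. The KRT6A probe (chr12:52881087-52881146, minus strand) read 734 and 1046, a log2 fold change of 0.82 with a technical SD of 0.06, or 1.77-fold. KRT6A thus stayed under the 2-fold rule, and its difference from KRT6B and from KRT6C was several times the technical SDs, though whether it would recur between cultures cannot be judged from 1 array each.

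These 3 changes stood out among probes of like signal. Of the 1196 probes within 0.5 log2 units of the KRT6B probe's mean signal, 0 had a higher log2 fold change, of 2697 around KRT6C 0.111% did, and of 2097 around KRT6A 0.238% did. In the set of 12373 bright probes (log2 signal above 7 on each array), 25 were at least 2-fold higher and 18 at least 2-fold lower, and KRT6B had rank 2 and KRT6C rank 8 from the top. The 16 keratin probes in that bright set held 2 of the 25. The spots around these probes were called higher no more often than the 2.93% of the whole array. In the block of spots that holds the KRT6B probe, 1.6% of compared probes were called higher, in that of KRT6C 2.69%, and in that of KRT6A 0.526%.

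The 3 probes bind different stretches of the paralogs. The 60-base probes are given here 5′ to 3′ in the sense of the mRNA, so that a reader can see what each measured. The KRT6A and KRT6B probes lie towards the 3′ ends of their genes and only their first 30 bases are printed, all in lower case since no stretch was compared.
KRT6A, first 30 bases: acaacttccacttactttccactggctctc
KRT6B, first 30 bases: ctgcccattatagctacactcaggagttct
At their best overlap without gaps, the whole KRT6A and KRT6B probes matched at 21 of 59 bases (35.6%), KRT6A and KRT6C at 16 of 41 (39%), and KRT6B and KRT6C at 18 of 51 (35.3%). The 3 probes therefore did not read a common stretch, but each may still bind the mRNA of the other paralogs, which are nearly the same over their coding parts. That match was not analysed here, and the split of the signal among KRT6A, KRT6B and KRT6C is uncertain for this reason.

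The KRT6C probe overlaps instead with that of KRT75, a type II keratin of the companion layer of the hair follicle whose gene lies on the other side of KRT6B. Both probes span more of the genome than their 60 bases, 674 bases for KRT6C and 201 for KRT75, and so lie across an exon junction in the deposited annotation. Below, capitals mark the bases that differ between them within their overlap.
KRT6C: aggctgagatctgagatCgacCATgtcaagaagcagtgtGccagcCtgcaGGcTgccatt
KRT75: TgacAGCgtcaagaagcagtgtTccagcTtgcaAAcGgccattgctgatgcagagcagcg
Over 43 shared positions 34 bases match (79.1%) and 9 differ. The KRT75 probe (chr12:52822220-52822420, minus strand) read 3.08 on the NC array, not well above background, and 33.4 on the si-THOC2 array. This was at least 2.82-fold higher, taking the lowest signal well above background on the NC array, 14.7, as its limit there. The bound is approximate and makes no allowance for the technical SD, 0.31 at this signal. The same holds for the other bounds in the text. The measured means differ by 3.75 on the log2 scale, a value that depends on a background signal. Whether the KRT75 spot also took up KRT6 mRNA was not tested. In its block of spots 9.69% of compared probes were called higher, above the 2.93% of the whole array.

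In genome order the genes KRT75, KRT6B, KRT6C and KRT6A are 4 consecutive keratin genes of the chromosome 12 cluster, and all 4 were higher. Their neighbours on both sides, KRT82 and KRT5, were not well above background on either array. KRT5, the basal type II keratin of the epidermis and a close relative of the KRT6 genes, was therefore not measurable beside them. Of the 27 keratin genes on chromosome 12, 16 were measured on at least 1 array with a median log2 fold change of 0.48. Of the 28 on chromosome 17, 12 were measured with a median of 0.13.

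**Figure D2:**
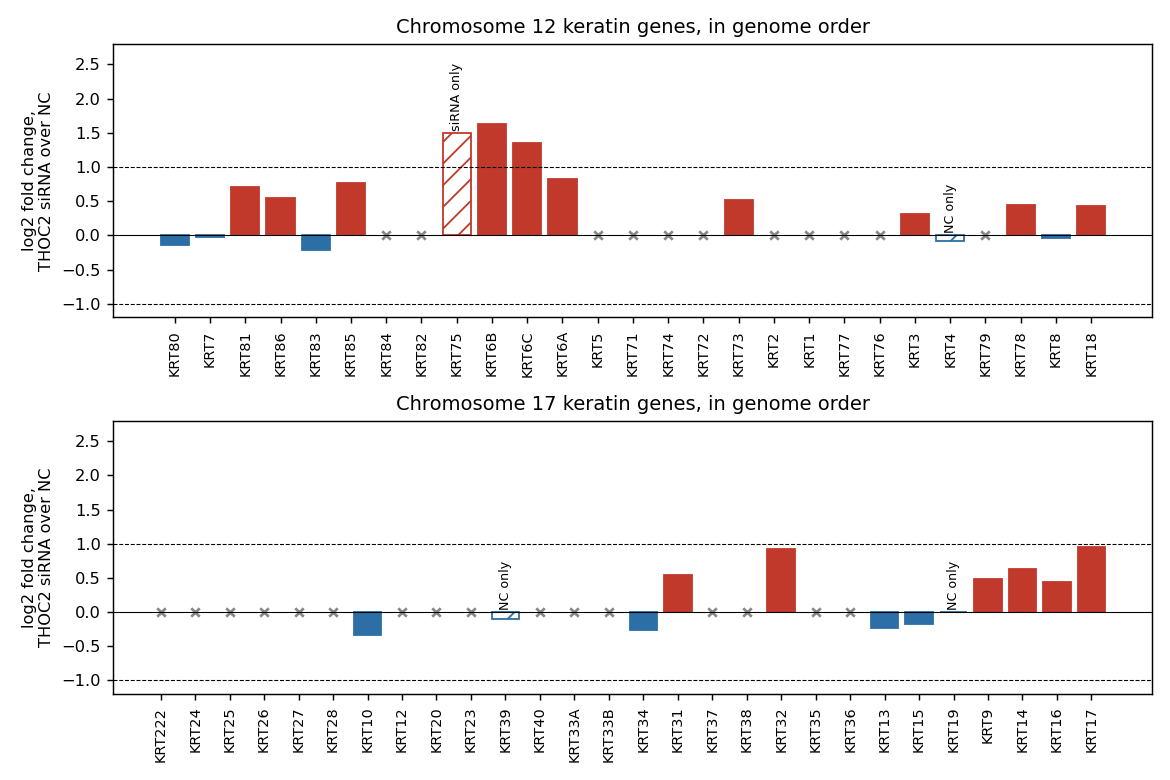
Log2 fold change (y axis, si-THOC2 over NC) of each keratin gene in genome order on chromosome 12 (top) and chromosome 17 (bottom), as the mean of its probes measured on both arrays. Hatched bars are bounds for genes measured on 1 array only, crosses are genes not well above background on either array, and dashed lines mark 2-fold. KRT75, KRT6B, KRT6C and KRT6A stand side by side, and KRT9, KRT14, KRT16 and KRT17 at the end of chromosome 17 all lie above 0.

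KRT16 and KRT17, the type I keratins found with KRT6 in wounded skin, were higher as well, by less than 2-fold. KRT17, a type I keratin of hair follicles and wounded epidermis, read 27.1 on the NC array and 42.4 on the si-THOC2 array, a log2 fold change of 0.96 with a technical SD of 0.14, or 1.94-fold. With another background correction (normexp), which draws dim signals together, it was 0.31. KRT16 (chr17:39767216-39767364, minus strand), which pairs with KRT6 in activated keratinocytes, read 92.2 and 101, a log2 fold change of 0.43 with a technical SD of 0.12. Of this, 0.31 comes from the scaling, which applies to every probe and put the median of all compared probes at 0.03. The other KRT16 probe was not well above background on either array, at 3.13 and 3.46. KRT14, the type I keratin of basal keratinocytes, had 2 measured probes that moved the same way.
The probe at chr17:39740013-39740072 (minus strand) read 83.9 and 104, a log2 fold change of 0.62 with a technical SD of 0.12. The probe at chr17:39742569-39742628 read 11.9, not well above background, and 26.9, at least 2.28-fold higher taking its limit on the NC array. The mean over both probes was 1.06 and rests on a signal below background for the second, so KRT14 passes 2-fold only through that probe. KRT16 and KRT14 are close relatives, and their probes overlap. They are printed to show how much sequence the neighbouring signals share, with the bases that differ within the overlap in capitals.
KRT16: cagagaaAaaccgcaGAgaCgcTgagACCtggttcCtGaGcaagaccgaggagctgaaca
KRT14: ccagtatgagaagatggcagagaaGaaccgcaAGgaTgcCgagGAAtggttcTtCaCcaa
Over 43 shared positions 32 bases match (74.4%) and 11 differ. The partner of KRT14 in basal cells, KRT5, was not well above background on either array, as given above.

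Among the other type I keratins of stratified epithelia, KRT9 was higher and KRT10, KRT13 and KRT15 were lower, each by less than 2-fold. KRT10, the type I keratin of differentiating epidermal cells, read 32306 on the NC array and 20623 on the si-THOC2 array, a log2 fold change of −0.34 with a technical SD of 0.04. Of the 324 probes of like signal, 98.1% had a higher value, and in its block of spots 10.4% of compared probes were called lower, against 3.33% on the whole array. KRT15, found in basal cells and in the bulge of the hair follicle, read 3685 and 2621, a log2 fold change of −0.18 with a technical SD of 0.05. KRT13, a keratin of mucosal epithelia such as the oesophagus, read 59.2 and 40.6, a log2 fold change of −0.23 with a technical SD of 0.13. The type II partner of KRT13, KRT4, read 20.9 on the NC array and 8.80, not well above background, on the si-THOC2 array, which makes it at least 1.06-fold lower. Both members of that mucosal pair thus read lower, within a bound close to 1 for KRT4 and within 2 technical SDs of 0 for KRT13. Of the probes of like signal to KRT13, 26.2% had a lower value. In the block of spots around KRT4, 12.6% of compared probes were called lower, against 3.33% on the whole array. KRT9, known from the epidermis of palms and soles, read 743 and 840, a log2 fold change of 0.49 with a technical SD of 0.06. The deposited annotation places only 18 bases of the KRT9 probe on the genome, so what the probe reads is less certain.

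Of the remaining type II keratins of stratified epithelia, KRT3 and KRT78 were higher after scaling and KRT80 lower, each by less than 2-fold. KRT80, a keratin found in many epithelia, read 3546 on the NC array and 2599 on the si-THOC2 array, a log2 fold change of −0.14 with a technical SD of 0.05. KRT78 read 29.8 and 32.6, a log2 fold change of 0.44 with a technical SD of 0.14. KRT3, a keratin of the corneal epithelium, read 67.7 and 67.9, a log2 fold change of 0.31 with a technical SD of 0.12. Its raw signals were nearly equal, so this value comes from the scaling, which put the median of all compared probes at 0.03. Of the probes of like signal, 16.1% had a higher value. Over the 7 measured genes of this branch, KRT6B and KRT6C included, the median was 0.44, and it was 0.43 over the 7 measured type I genes.

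Of the keratins of simple epithelia, KRT7, KRT8 and KRT18 were measured on both arrays, KRT19 on the NC array only, and none passed 2-fold. KRT18, on the plus strand of chromosome 12, had 2 probes that gave like values. One read 29881 on the NC array and 31561 on the si-THOC2 array, a log2 fold change of 0.39, and the other 6344 and 7052, a log2 fold change of 0.46, each with a technical SD of 0.04. The values of its partner KRT8 lay closer to 0. The KRT8 probe of the coding transcript read 824 and 724, a log2 fold change of 0.12 with a technical SD of 0.06. A KRT8 probe assigned to a noncoding transcript (chr12:53343241-53343300, minus strand) read 2223 and 1572, a log2 fold change of −0.19 with a technical SD of 0.05. The other KRT8 probe was not well above background on either array, at 14.8 and 3.21. Both chains of the pair are stabilised by each other as proteins, while these values are mRNA only. KRT7, the other type II keratin of simple epithelia, read 7858 and 6252, a log2 fold change of −0.02 with a technical SD of 0.04. In its block of spots 19.9% of compared probes were called higher, and centred by block its value was −0.18. KRT19, a type I keratin without the usual tail, read 19.0 on the NC array and 13.4, not well above background, on the si-THOC2 array, and no fold can be given. KRT20, the type I keratin of intestinal epithelium, and KRT23 were not well above background on either array.

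Hair keratins, which build the hair shaft, were measured as well. On chromosome 12 the hair keratin genes KRT81, KRT86, KRT83 and KRT85 stand next to each other, and 3 of the 4 were higher. KRT81 (chr12:52679697-52679756, minus strand) read 5235 on the NC array and 6918 on the si-THOC2 array, a log2 fold change of 0.71 with a technical SD of 0.04, or 1.64-fold. Only 0.606% of probes of like signal had a higher value. KRT86 read 190 and 224, a log2 fold change of 0.55 with a technical SD of 0.09, and KRT85 read 34.8 and 47.8, a log2 fold change of 0.77 with a technical SD of 0.14. In the block of spots around KRT85, 19.9% of compared probes were called higher. KRT83 went the other way on both of its probes, from 289 to 220 with a log2 fold change of −0.09 (technical SD 0.08) and from 29.9 to 18.9 with a log2 fold change of −0.35 (technical SD 0.15). KRT81, KRT83 and KRT86 are close paralogs, and their probes may share mRNAs.

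On chromosome 17, KRT31, KRT32 and KRT39 had signals close to the lowest that count as well above background (14.7 and 15.9), and KRT34 was brighter. KRT32 read 20.7 on the NC array and 31.7 on the si-THOC2 array, a log2 fold change of 0.93 with a technical SD of 0.14 (0.24 with normexp), and KRT31 read 17.1 and 20.1, a log2 fold change of 0.55 with a technical SD of 0.26. KRT34 read 76.0 and 51.2, a log2 fold change of −0.26 with a technical SD of 0.13. KRT39 read 21.1 and 9.69, the second not well above background, and was at least 1.07-fold lower. No hair keratin passed 2-fold. Of the root sheath keratins beside KRT75, KRT73 read 476 and 552, a log2 fold change of 0.52 with a technical SD of 0.07, in a block of spots where 10% of compared probes were called higher. Among the 27 keratin probes measured on both arrays, 23 lay more than 2 technical SDs from 0. This says that repeated spots alone vary less than these differences and nothing of cultures. The same share over all probes was not computed, so the count is not read as particular to keratins. Over all bright probes the log2 fold changes had an SD of 0.23, larger than most of these technical SDs.

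**Figure D3:**
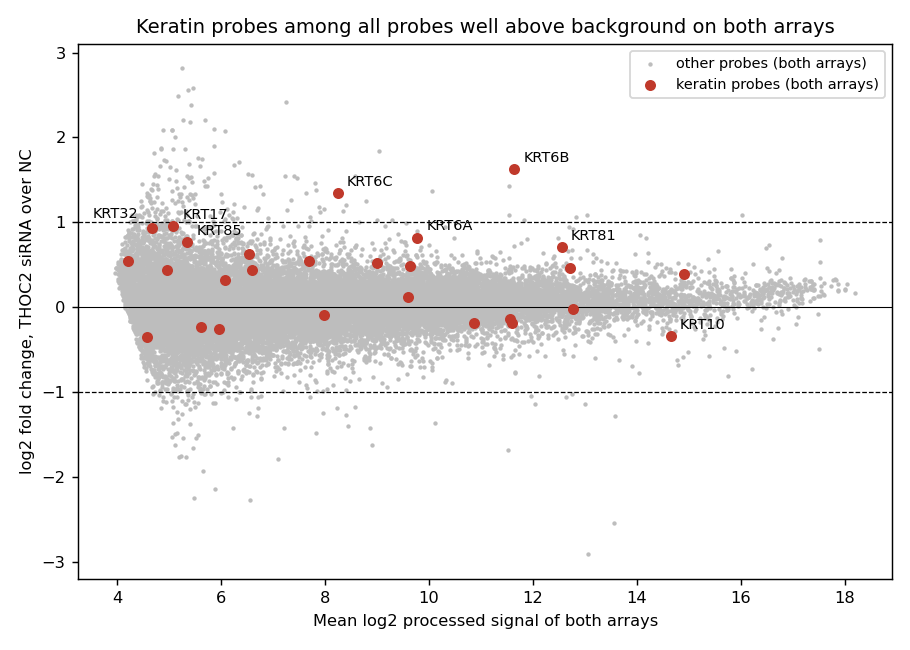
Log2 fold change (y axis, si-THOC2 over NC) against mean log2 processed signal (x axis) for the 22207 probes measured on both arrays, with the 27 keratin probes in red and dashed lines at 2-fold. KRT6B (1.63) and KRT6C (1.35) lie above the upper line, KRT6A (0.82) below it, and KRT17 and KRT32 lie among dim probes whose values scatter more.

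The markers of cell type were those of a melanoma line with little of the melanosome program. Over the 5 measured genes of the melanocyte lineage list the summed signal, on the scale of the NC array, was 6792 with NC and 6987 with si-THOC2. SOX10, a transcription factor of the melanocyte lineage, read 6196 on the NC array and 5196 on the si-THOC2 array, a log2 fold change of 0.06, and this probe makes up most of that sum. MITF, the central transcription factor of melanocytes, read 274 and 215 on its brighter probe, a log2 fold change of −0.04. S100B, a calcium-binding protein of melanocytes, was lower, at 199 and 102, a log2 fold change of −0.66 with a technical SD of 0.10. DCT, an enzyme of melanin synthesis, was higher, at 18 and 24.4, a log2 fold change of 0.75 with a technical SD of 0.17. PMEL, TYR and TYRP1 were not well above background on either array, and MLANA was measured on the si-THOC2 array only, at 18.7 and at least 1.58-fold higher. The other probes of MLANA (3.12 and 3.8) and S100B (9.71 and 6.87) were not well above background on either array. Of 9 epithelial cell markers, 2 were measured on the NC array and 3 on the si-THOC2 array, with CDH1 and EPCAM, defining genes of epithelia, not well above background on either. CLDN4, a protein of epithelial tight junctions, was lower, at 4558 and 2763, a log2 fold change of −0.41 with a technical SD of 0.04. The other CLDN4 probe was not well above background on either array, at 3.15 and 3.44. ESRP2, an epithelial splicing factor, read 19.4 and 17.5 (log2 fold change 0.16), and ELF3, an epithelial transcription factor, was measured on the si-THOC2 array only, at 17.7 and at least 1.5-fold higher. The summed signal of these 3 markers, nearly all of it from CLDN4, was 4585 with NC and 3468 with si-THOC2. Of 8 keratinocyte markers, SFN was measured on both arrays, at 1158 and 1101, and LY6D on the si-THOC2 array only, at 22.9 and at least 1.94-fold higher. TP63, IVL, DSG3 and COL17A1 were not well above background on either. The summed signal of the 2 measured keratinocyte markers was 1165 with NC and 1394 with si-THOC2. The part of other cell types in the keratin values was not tested.

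The 10 related lists hold genes related to keratins or their regulation, keratin pseudogenes and the cell type markers above. Of their genes measured on both arrays, 0 passed 2-fold. Among all probes measured on both arrays, 0.829% were higher and 0.365% lower, so a count of 0 is near that share. Desmosomes, the junctions to which keratin filaments attach, had 8 measured genes of 15 with a median log2 fold change of −0.07. PERP read 3218 on the NC array and 3001 on the si-THOC2 array (log2 fold change 0.21), PKP3 read 2789 and 2857 (0.34), EVPL read 590 and 605 (0.35), and PPL was measured on the NC array only, at 22.4 against 3.27, at least 1.14-fold lower. PERP, PKP3 and EVPL were the only 3 of the 8 above 0. PKP2 read 49.7 and 23.5 (−0.77) and JUP read 362 and 226 (−0.37), with DSG2 at −0.11 and DSP at −0.04. Hemidesmosomes and cytolinkers, which anchor keratins to the basement membrane, had 8 of 9 genes measured with a median of 0.11. The tetraspanin CD151 read 39873 and 32690 (0.02), LAMB3, a chain of laminin-332, 15041 and 11704 (−0.05), and the cytolinker PLEC 4327 and 3681 (0.08) on its brighter probe. ITGB4, an integrin subunit of that junction, read 506 and 711, a log2 fold change of 0.80 with a technical SD of 0.06, which is close to that of KRT6A. Other intermediate filament genes, 10 of 15 measured, had a median of 0.12. Vimentin, the filament protein of melanoma cells, read 54790 and 46363, a log2 fold change of 0.07, and LMNA, which encodes lamins A and C, had 3 probes at 0.10 to 0.24, the brightest at 41805 and 38403. Cornified envelope genes, which act late in epidermal differentiation, had 6 of 20 measured with a median of −0.22. The measured small proline-rich genes were lower, SPRR2A at 43135 and 29065 (−0.26) and at 5092 and 3134 (−0.39) on its 2 probes, and SPRR1A at 1270 and 887 (−0.21). The other probes of SPRR1A (3.06 and 3.34) and TCHH (3.29 and 3.55) were not well above background on either array. TCHH, which encodes trichohyalin of the inner root sheath, read 48.6 and 22.3, a log2 fold change of −0.82 with a technical SD of 0.14, as large as that of KRT6A in the other direction.

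Known regulators of keratin genes had 7 of 15 measured and a median of 0.09. KLF5 read 2484 on the NC array and 2131 on the si-THOC2 array (log2 fold change 0.09), TFAP2C read 552 and 475 (0.09), and KLF4 read 334 and 361 (0.42). ELF3, given above, was the only one of these 7 called at 2-fold, beside 2.93% of all compared probes called higher. Its call rests on an NC signal of 7.56, not well above background, and its bound is 1.5-fold. Of the regulators measured on both arrays, 0 passed 2-fold. Keratin-associated proteins, which cross-link hair keratins, had 38 of 91 genes measured with a median of 0.05. Of these 38 genes, 0 were called higher and 4 lower, beside 2.93% and 3.33% of all compared probes, which are shares of probes and not of genes. All 4 were measured on the NC array only. KRTAP10-7 read 51.9 and 3.21 and was at least 2.64-fold lower, a larger fold than that of KRT6C, KRTAP4-8 read 31.8 and 12.2 and was at least 1.62-fold lower, and KRTAP4-3 and KRTAP19-7 have no bound above 1. The brightest, KRTAP1-4, read 3480 and 2787 (log2 fold change −0.01). Of 8 keratin pseudogenes 3 were measured. The values of KRT18P55 and KRT16P2 were close to those of the genes they are named for. KRT18P55 read 6621 and 7318, a log2 fold change of 0.45 beside 0.39 and 0.46 for the KRT18 probes. KRT16P2 had a log2 fold change of 0.38 beside 0.43 for KRT16. KRT8P12 had one of −0.10, nearer to the KRT8 probe assigned to a noncoding transcript (−0.19) than to that of the coding transcript (0.12). Whether these probes read the pseudogene or the parent mRNA was not analysed here.

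**Figure D4:**
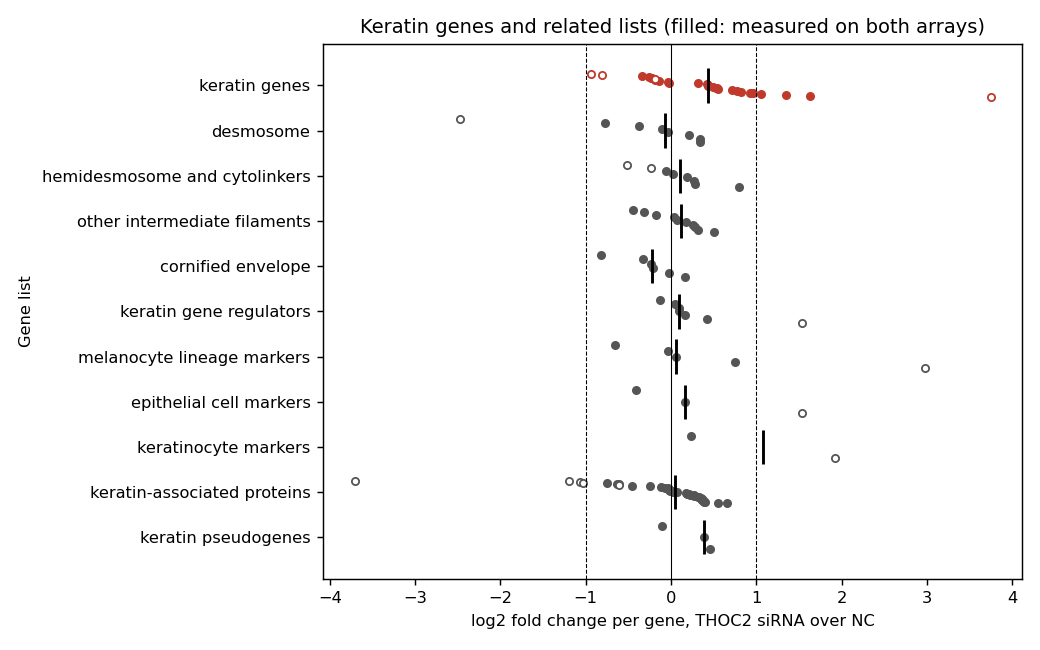
Log2 fold change (x axis, si-THOC2 over NC) of each compared gene of the keratins (red) and of 10 related lists (y axis), with filled points for genes measured on both arrays, open points for genes measured on 1 array, black bars for medians and dashed lines at 2-fold. The keratin median of 0.44 lies above those of the desmosome (−0.07) and other intermediate filament (0.12) lists, and every point beyond 2-fold outside the keratins is open.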

How the data were processed

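RNA of 1 NC culture and 1 si-THOC2 culture was measured on 1 Agilent one-colour array each. The deposited scanner files hold intensity values per spot, which the authors made with Feature Extraction 10.7.1.1 according to the submitters' processing notes, with the background subtracted. Normalized log2 values that the authors deposited for each array were used here as an alternative. A deposited comparison table holds the authors' own fold changes and was not used. Student's test, named in the methods, cannot be made on 1 array per condition.

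Control spots and spots marked as outliers (147 and 168 other than control spots) were removed, 0 spots were saturated, and the spots of each probe were averaged as log2 processed signals, less the 75th percentile of each array. Of 58199 probes, 25345 were well above background on either array or both, and these were compared and called at 2-fold. A gene is the mean of its compared probes. For a probe measured on 1 array, the fold is a bound against the lowest signal well above background, 14.7 (NC) or 15.9 (si-THOC2), or the probe's own signal if higher. Well above background is decided spot by spot, and a KRT8 probe at 14.8 on the NC array was not called. The bounds are therefore approximate and leave out the technical SD. Technical SDs are the median over the 25 repeated probes nearest in signal, of 300 with 10 spots each. The number of arrays limits the precision.

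Every keratin measured on at least 1 array was to be named, with KRT6A, KRT6B and KRT6C, both THOC2 probes and, from each related list, up to 3 of the brightest probes and any gene measured on both arrays that passed 2-fold. Other list genes named were chosen after their values were seen. The keratins, lists and markers were chosen with earlier results of these data known. The listed symbol LORICRIN was matched to LOR. Positions are those of the deposited annotation (hg19). Matches of probes to paralog transcripts were not analysed here.

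The alternatives were quantile normalization, scaling on the 75th percentile or the median of probes measured on both arrays, lowess centring (span 0.3), normexp (offset 50), other detection filters and calls, dim signals at their limit, the authors' values, centring by the 128 blocks of spots, counts of genes instead of probes, and 3-fold as the threshold. The calculation was tested on simulated data. Python 3.11.15 with numpy 2.4.6, pandas 2.3.3, statsmodels 0.14.6 and matplotlib 3.10.9, and R 4.3.3 with limma 3.58.1, were used.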

Additional observations from a re-analysis of the deposited data

How the results depend on the processing

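No paired analysis was possible because NC and si-THOC2 have 1 array each. Of the 28 measured keratin genes, 27 kept the sign of their log2 fold change under every alternative run, and KRT19 ranged from −0.25 to 0.06. KRT8, counted among the 27, ranged from −0.66 to −0.0002. Its main value of −0.03 averages 2 probes of opposite sign (0.12 and −0.19). Some alternatives could not change a sign. Where all probes of a gene were measured on both arrays, other detection filters and dim signals at their limit return the main value. For a gene measured on 1 array, a bound that would point the other way is set to 0. KRT6B ranged from 1.52 to 1.63, KRT6C from 1.11 to 1.35, KRT6A from 0.73 to 0.82 and KRT75 from 0.84 to 4.31. With normexp, which adds an offset that draws dim signals together, the THOC2 value was −0.54, the keratin median 0.23 and the keratin probes at least 2-fold higher 2. KRT75 was at 0.84, KRT17 at 0.31, KRT32 at 0.24, KRT14 at 0.37, KRT85 at 0.36, KRT16 at 0.24 and KRT31 at 0.13. The count of higher probes was also 2 with a fold of 3 and with probes measured on both arrays only, where KRT14 was at 0.62. Without a detection filter 7 were higher and 1 lower, where probes below background on both arrays are called too and the all-probe median is 0.31. Over all probes the calls were 844 lower and 743 higher, 39 and 60 with normexp, 81 and 184 on both arrays only, 1929 and 3127 without a filter, 225 and 476 with dim signals at their limit, 502 and 447 at 3-fold, and 633 and 857 with lowess. Of 276 keratin gene values under an alternative, those that could not move included, 71 moved by at least the technical SD, and 14 of 100 list medians moved. The counts of measured keratins stayed within 1.5 times. With 1 array each and 1 spot per keratin probe, signals near background limit KRT4, KRT14, KRT17, KRT19, KRT31, KRT32, KRT39 and KRT75 most.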
